A study of Mus musculus with 12 samples.

Results

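The 10 genes described here encode enzymes of glycolysis, the pathway from glucose to pyruvate. They are Hk1, Gpi1, Pfkl, Aldoa, Aldoc, Tpi1, Gapdh, Pgk1, Eno1 and Pkm, chosen by name and matched by gene symbol among the 25124 genes of each table. All 10 were found in both tables, and all 10 passed the filter of a mean of at least 0.5 FPKM (fragments per kilobase of transcript, scaled to the tags of the library). The samples were whole retinas of wildtype C57BL/6J mice, 12 libraries in 6 groups of 2, in the 2 tables of a single-IOP and a repeated-IOP experiment. In the single-IOP experiment, animals of 3 or 18 months had 1 eye held at an intraocular pressure (IOP) of 30 mmHg for 1 h, which gave the groups 3mo IOP and 18mo IOP, and the untreated eyes of the other side gave 3mo control and 18mo control. In the repeated-IOP experiment, animals of 3 months had the same elevation 4 times, every other week (4xIOP), with the untreated fellow eyes as the 4xIOP control. All retinas were collected 2 days after the last elevation. No group of these libraries was cannulated without pressure, so the needle and the pressure cannot be told apart. Each library is stated to come from the retina of an eye, but no source says which same-numbered eyes shared an animal, and p-values measure the spread between these libraries.

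Glycolysis splits glucose into pyruvate in an investment phase that spends ATP and a payoff phase that returns it. Photoreceptors turn most of their glucose into lactate even when oxygen is present, and retinal glia and neurons exchange and burn that lactate. Several steps have more than 1 enzyme gene: Hk2 is the hexokinase and Pkm the pyruvate kinase gene of photoreceptors, Aldoc is the brain aldolase, rich in glia, and Eno2 is the neuronal enolase.

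The libraries held between 39766264 and 59455020 tags, recovered from the values, with between 44.18% and 71.52% of them in exons. Rod markers were abundant in every library, with a summed level of 8 genes between 3625 and 26140 FPKM. The libraries differed in how the level depended on transcript length. The median FPKM of transcripts under 1000 bases was 1.89 and 4.70 times that of transcripts of at least 4000 bases in the 3mo control libraries. In the 18mo control libraries the same ratio was 1.28 and 1.21. In the 3mo IOP libraries it was 3.26 and 2.99, and in the 18mo IOP libraries 1.20 and 1.36. The replicates of 3mo control thus stood apart from each other, on either side of the 3mo IOP libraries. Replicate 2 of 3mo control had the highest ratio, and values without it are given for the calls it changes. Retinal pigment epithelium markers, 6 genes with none at 0, summed to between 120.6 and 342.1 FPKM in the 4 single-IOP libraries of 3mo retinas and to between 1.05 and 8.21 FPKM in the 4 of 18mo retinas. In the repeated experiment they summed to 22.9 and 30.0 FPKM in the 4xIOP control and to 2.51 and 5.40 FPKM in the 4xIOP libraries. In whole tissue, fewer cells of a type in the sample, for whatever reason, and less RNA per cell cannot be told apart.

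Aldoa and Pkm had the highest levels of the 10 enzymes in every group, and Gapdh the lowest. Aldoa, which cleaves fructose 1,6-bisphosphate, averaged 1252 ± 317 FPKM in 3mo control retinas (SD, n = 2). Pkm, which makes pyruvate, averaged 1042 ± 128 FPKM there (SD, n = 2), and the libraries of the 2 genes overlapped. Tpi1, which interconverts the triose phosphates, had 469 ± 189 FPKM and Eno1, the ubiquitous enolase, 452 ± 123 FPKM (SD, n = 2 each), again with overlap. The next were Aldoc with 126 ± 27.6 FPKM, Gpi1 with 124 ± 12.6 FPKM, Hk1 with 89.8 ± 26.7 FPKM and Pfkl with 42.6 ± 8.21 FPKM (SD, n = 2 each). Pgk1 followed with 32.5 ± 6.83 FPKM, and Gapdh stood last with 8.92 ± 0.167 FPKM (SD, n = 2 each). Aldoc and Gpi1 also overlapped, as did Pfkl and Pgk1. With age the middle of the order changed: in 18mo control retinas Eno1 followed Pkm with 319.9 ± 1.63 FPKM, above Tpi1 with 222 ± 43.1 FPKM (SD, n = 2 each), without overlap. Aldoc stood below Gpi1 and Hk1 in 18mo control retinas. Hk1 is represented by a transcript of 4076 bases in the single-IOP table and of 4137 bases in the repeated-IOP table, and levels were not compared between tables.

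**Figure D1:**
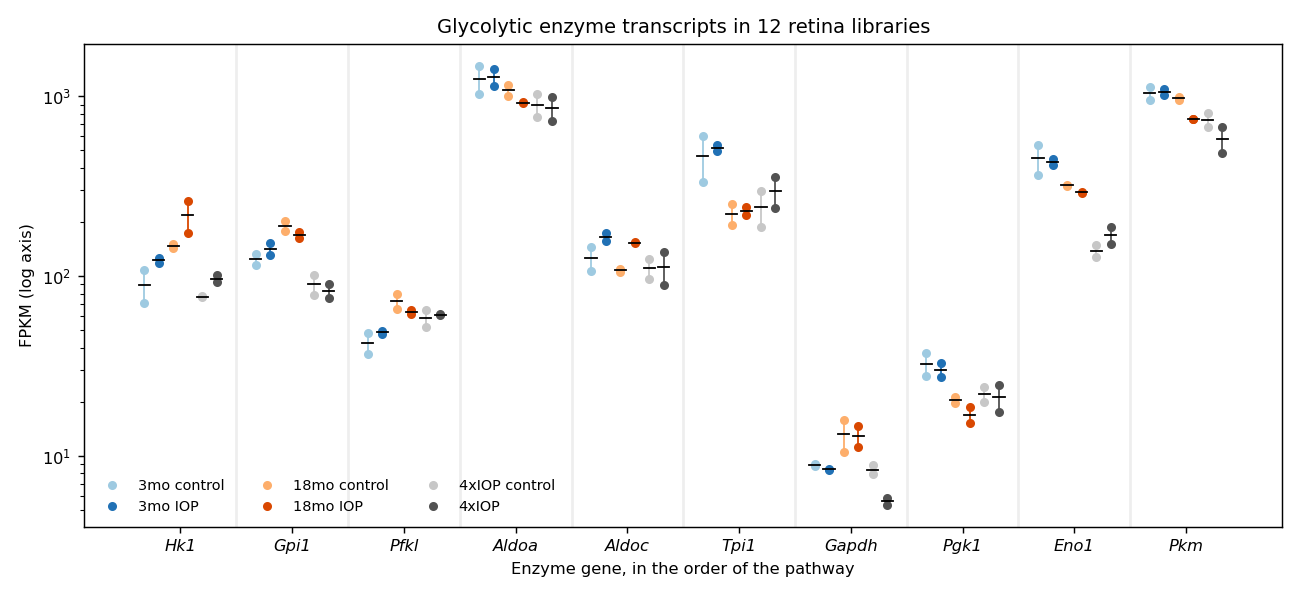
FPKM (log axis) of the 10 enzymes in the order of the pathway, with a point for each of the 12 libraries, black bars for group means and a line joining the 2 libraries of a group. Aldoa and Pkm lie near or above 484 FPKM in every library, Gapdh lies under 16 FPKM, and the 3mo and 18mo points of Tpi1, between 335 and 602 against 192 and 253 FPKM, do not overlap.

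Several enzymes share sequence with transcripts of other genes, and the part of this in their rank was not tested. HOMER counted only tags that map to a single place. Of the 50-base words of the Gapdh transcript, 90.44% also occur in transcripts of 222 other annotated genes, led by the pseudogene Gm7336. For Eno1 the share was 72.19%, with most words shared with Eno1b, and for Pgk1 67.96%, shared with Pgk1-rs7. Pkm shared 34.41%, Gpi1 25.26%, Aldoa 14.39% and Tpi1 7.51%, while Hk1 and Aldoc shared none and Pfkl 0.0543%. Since read length is not known, words of 100 bases were counted too: Gapdh shared 85.78%, Pgk1 67.03% and Eno1 59.02% of those, Pkm 9.82%, Gpi1 7.40%, Tpi1 0.796% and the other 4 none. A level of a gene with many shared words covers the unshared part of its transcript only and is uncertain, since reads from its copies cannot be assigned. Gapdh rested on 441 to 1024 reads in the single-IOP libraries, with a counting error of at most 4.76%, and on 286 to 446 in the repeated-IOP libraries. Every other enzyme had at least 1530 reads in each library.

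Promoter windows of 3 members are printed because Tpi1 was the only enzyme called with age, Pgk1 passed the adjusted p in both age comparisons, and Aldoc had the smallest p of the enzymes in the IOP comparison at 18mo. Each runs 5′ to 3′ from 250 bases before to 50 bases after the start in RefSeq (GRCm38.p6, the build of the files). All 10 members matched by symbol, and the RefSeq start lies 137 bases from that of the table for Tpi1, 207 for Pkm and 693 for Gapdh, and 1 base for the other 7, so that the Gapdh window is not at the start of the transcript measured. Capitals mark ACGTG or its reverse complement CACGT, a form of the core of the element that hypoxia-inducible factors recognise. The other form, GCGTG, was not searched. Tpi1 lies at chr6:124814109-124814408 on the minus strand, Pgk1 at chrX:106186850-106187149 on the plus strand and Aldoc at chr11:78322823-78323122 on the plus strand.
Tpi1: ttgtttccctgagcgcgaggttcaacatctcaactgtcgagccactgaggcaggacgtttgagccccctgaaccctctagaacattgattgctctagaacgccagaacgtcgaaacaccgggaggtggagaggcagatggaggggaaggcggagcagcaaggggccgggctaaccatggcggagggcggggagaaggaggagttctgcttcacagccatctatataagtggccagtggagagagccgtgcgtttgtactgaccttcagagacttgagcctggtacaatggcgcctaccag
Pgk1: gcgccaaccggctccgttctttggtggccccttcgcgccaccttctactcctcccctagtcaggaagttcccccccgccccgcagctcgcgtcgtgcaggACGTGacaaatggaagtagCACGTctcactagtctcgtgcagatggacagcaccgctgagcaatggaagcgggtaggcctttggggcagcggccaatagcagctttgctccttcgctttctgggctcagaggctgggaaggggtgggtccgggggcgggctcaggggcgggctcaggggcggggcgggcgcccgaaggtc
Aldoc: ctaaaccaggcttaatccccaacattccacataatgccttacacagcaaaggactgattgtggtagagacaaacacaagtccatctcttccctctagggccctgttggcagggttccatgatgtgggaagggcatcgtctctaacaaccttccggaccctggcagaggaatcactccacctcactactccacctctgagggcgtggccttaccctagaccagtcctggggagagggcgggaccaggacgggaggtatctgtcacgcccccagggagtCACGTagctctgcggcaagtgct
The Pgk1 window holds 2 matches and the Aldoc window 1, while the Tpi1 window holds 0. Among the 10 enzymes 3 have a match to ACGTG, with Gapdh as the other, against 6447 of 32851 promoters, or 19.6%. A second motif searched on both strands, TATAAA, was in no enzyme window and in 13.6% of all windows. A match is a description of letters, and binding was not measured here.

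Age was compared first in untreated eyes, 18mo control against 3mo control. Values of log2(FPKM + 0.5) were tested in limma with Benjamini-Hochberg adjustment over 13731 genes, and a gene was called at an adjusted p of at most 0.05 and at least a 2-fold change. Tpi1 fell. Its level was 335 and 602 FPKM in the 3mo control libraries and 192 and 253 FPKM in the 18mo control libraries. The groups did not overlap, and the lower 3mo library lay closer to the aged libraries than the other. The log2 fold change was -1.03 ± 0.316 (SE, n = 2 against 2, limma adjusted p = 0.0305). It was the only one of the 10 enzymes called, while 23.2% of all genes tested were called. By the adjusted p alone 4 of 10 passed, against 45.9% of all genes, and 7 of 10 did not overlap between the ages, against 78.5%. The median log2 fold change of the enzymes was -0.14 and that of all genes 0.16.

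Of the first steps, Gpi1 and Pfkl passed the adjusted p alone and Hk1 did not. Hk1, which traps glucose in the cell, had 109 and 70.9 FPKM in 3mo control and 143 and 152 FPKM in 18mo control libraries. The groups did not overlap, and the log2 fold change of 0.74 ± 0.280 missed the threshold (SE, n = 2 against 2, limma adjusted p = 0.0592). Its value rested on which young library was kept: without replicate 1 of 3mo control it was called at 1.05 (limma adjusted p = 0.0122), and without replicate 2 it was at 0.43 (limma adjusted p = 0.224). Gpi1, which isomerises glucose 6-phosphate, had 115 and 133 against 178 and 204 FPKM. Its log2 fold change was 0.62 ± 0.204 (limma adjusted p = 0.0386). Pfkl, the liver-type subunit of the committed step, had 48.4 and 36.8 against 65.4 and 79.3 FPKM. With 0.76 ± 0.198 (SE, limma adjusted p = 0.0175) it had the smallest p of the 10, yet like Gpi1 it stayed under 2-fold. With any 1 of the 8 libraries left out, the limma adjusted p ranged from 0.0244 to 0.235 for Gpi1 and from 0.0026 to 0.137 for Pfkl. Pfkl no longer passed without either 18mo control library, and Gpi1 without any of the 18mo control, 3mo IOP or 18mo IOP libraries. These 3 are also the longest transcripts of the list, with 2867 to 4076 bases.

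The aldolases overlapped between the ages. Aldoa had 1028 and 1476 FPKM in 3mo control and 1009 and 1160 FPKM in 18mo control libraries, a log2 fold change of -0.19 with a 95% interval from -0.93 to 0.55. Aldoc had 106 and 145 against 106 and 109 FPKM, with -0.21 and an interval from -0.70 to 0.28. Intervals this wide leave room for changes of either sign.

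In the payoff phase Pgk1 and Gapdh stood on opposite sides. Gapdh, which oxidises glyceraldehyde 3-phosphate, had 9.04 and 8.81 FPKM in 3mo control and 10.5 and 15.9 FPKM in 18mo control libraries, without overlap, and a log2 fold change of 0.51 ± 0.226 (SE, n = 2 against 2, limma adjusted p = 0.0929). Pgk1, which makes the first ATP of the pathway, had 27.7 and 37.3 against 19.7 and 21.4 FPKM. Its log2 fold change of -0.64 ± 0.207 passed the adjusted p alone (limma, 0.0366). Without replicate 2 of 3mo control Pgk1 was at -0.42 and did not pass, and without replicate 1 it was at -0.85. It also did not pass without either 18mo control or either 3mo IOP library. Eno1 had 365 and 539 against 321 and 319 FPKM, without overlap and with a log2 fold change of -0.47 ± 0.258 (SE, limma adjusted p = 0.162). Pkm had 952 and 1133 against 958 and 990.1 FPKM, which overlapped, with -0.09 and a 95% interval from -0.73 to 0.54. The 4 enzymes thus ranged from higher to lower within 1 phase of the pathway.

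**Figure D2:**
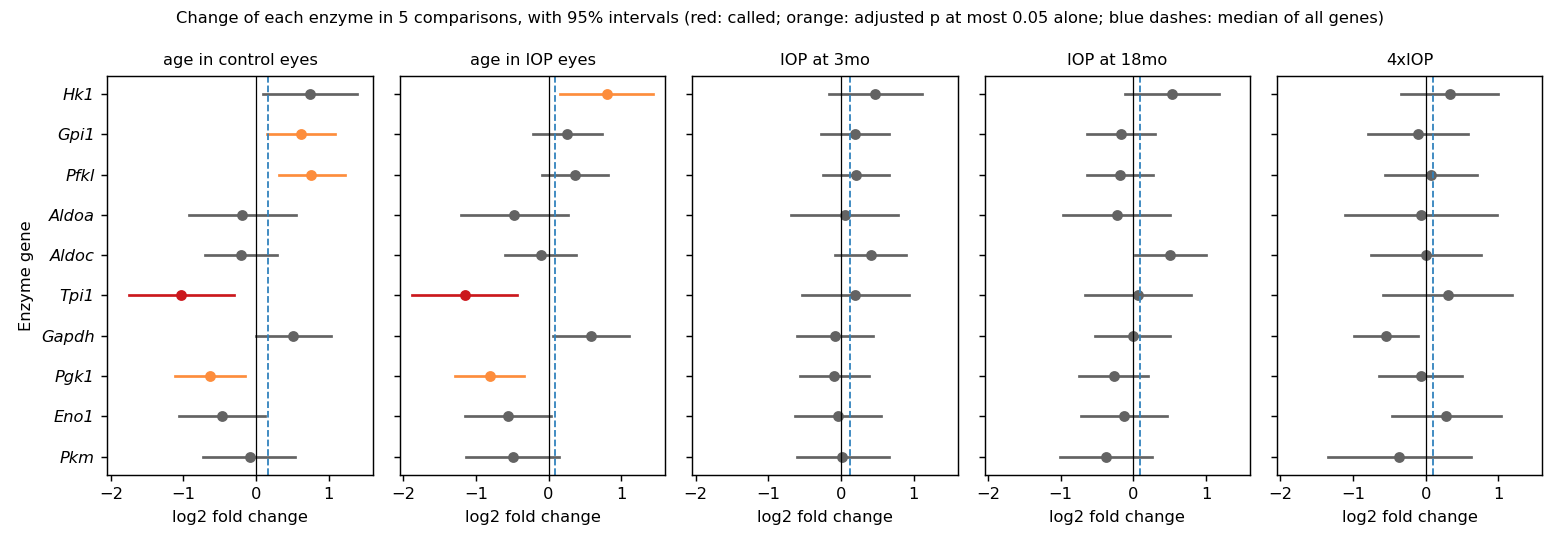
Log2 fold change of each enzyme with its 95% interval (limma, 2 libraries a group) in 5 comparisons, with the median of all genes tested as a blue dashed line. Tpi1 is called in both age comparisons (red), 4 other enzymes pass the adjusted p alone in an age comparison (orange), and in the 3 IOP comparisons no enzyme passes.

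The same contrast of ages in treated eyes, 18mo IOP against 3mo IOP, used other libraries of the same experiment. They came from the other eyes of the same cohorts and shared the estimate of the spread, so the comparison is not an independent repeat. The level of Tpi1 was 534 and 497 FPKM in the young treated libraries and 244 and 219.8 FPKM in the aged ones. It fell by 1.15 on the log2 scale with an SE of 0.316 (n = 2 against 2, limma adjusted p = 0.0228). Both aged libraries lay far below both young libraries. Pgk1 had 32.7 and 27.6 against 18.7 and 15.2 FPKM and passed the adjusted p alone, with -0.81 ± 0.207 (SE, limma, 0.0181). Hk1 had 127 and 118 against 173 and 263 FPKM and passed likewise with 0.80 ± 0.280 (SE, limma, 0.0492). The spread of Hk1 was largest in the 18mo IOP group, where replicate 2 stood above replicate 1. Without replicate 1 of 18mo IOP Hk1 was called at 1.10 (limma adjusted p = 0.0436), and without replicate 2 it was at 0.50 (limma adjusted p = 0.258). It did not pass without either 3mo IOP library (limma adjusted p = 0.153 and 0.188) or either 18mo control library (0.0866 and 0.0858). Pgk1 did not pass without either 3mo IOP library or replicate 2 of 18mo IOP (limma adjusted p from 0.0674 to 0.12). Gpi1 and Pfkl, with 0.26 and 0.37, did not pass (limma adjusted p = 0.329 and 0.162). Gapdh had 8.45 and 8.37 against 14.7 and 11.2 FPKM, with 0.58 ± 0.226 (SE, limma adjusted p = 0.0679). Called were 1 of 10 enzymes against 21.8% of all genes. By the adjusted p alone 3 of 10 passed against 42.6%, and all 10 were without overlap against 77.7%. The median of the enzymes was -0.29 and that of all genes 0.09.

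Both age comparisons ran along transcript length. Over 13731 genes the log2 fold change was higher for longer transcripts, with a Spearman rho of 0.405 in control and 0.46 in IOP eyes, a description across genes that share libraries. In control eyes the median log2 fold change of all genes was -0.23 for transcripts of 1000 to 2000 bases, 0.17 for 2000 to 3000 bases and 0.38 for 3000 to 5000 bases. Tpi1, of 1592 bases, lay below the genes of its length, and Gapdh, of 1265 bases, above. After the length trend was removed from each library, Tpi1 was at -0.74 in control eyes and -0.83 in IOP eyes, still past the adjusted p (limma, 0.0273 and 0.0205) and no longer at 2-fold. Gapdh was then at 1.07 and 1.17 and called (limma adjusted p = 0.0140 and 0.0123), with the limit on its shared sequence given above. With replicate 2 of 3mo control left out as well, Gapdh in control eyes was at 0.79 and Tpi1 at -0.47, and neither passed (limma adjusted p = 0.0918 and 0.13). Removing the trend with GC content as well left Tpi1 at -0.88 and -0.95 and brought Hk1, Gpi1 and Pfkl in control eyes to 0.09, 0.23 and 0.07. Gapdh was then at 0.84 and 0.98, under 2-fold and past the adjusted p alone (limma, 0.0406 and 0.0255), and under quantile normalization it did not pass, at 0.44 and 0.51 (limma adjusted p = 0.155 and 0.110). Quantile normalization moved the list the other way, with Hk1, Gpi1 and Pfkl called in control eyes at 1.27, 1.21 and 1.22 and Tpi1 at -0.38 (limma adjusted p = 0.191). Under it Aldoa, Aldoc, Eno1 and Pkm, which were below 0 as deposited, lay above 0 in control eyes, at 0.54, 0.43, 0.12 and 0.54, and also in IOP eyes, while Pgk1 stayed below 0 at -0.44 and -0.70.

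**Figure D3:**
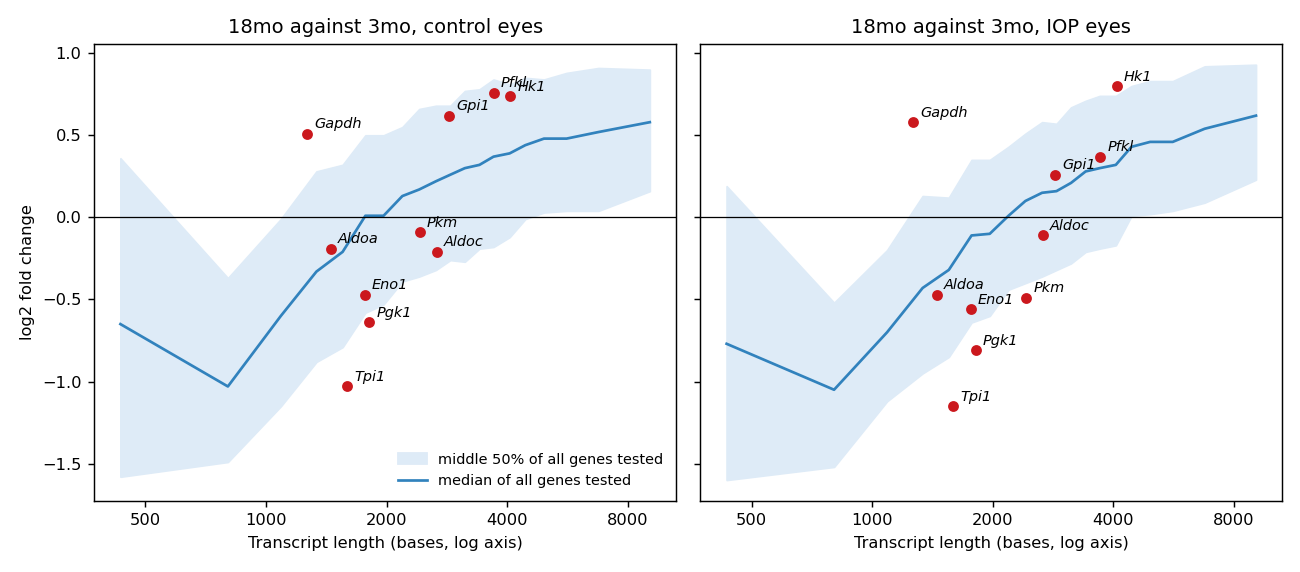
Log2 fold change with age (vertical) against transcript length in bases (log axis) for control eyes (left) and IOP eyes (right), with the 10 enzymes as red points, the median of all genes tested in 20 bins of length as a line and the middle 50% of genes as a band. The line climbs with length, Tpi1 lies below the band at -1.03 and -1.15, and Gapdh lies above it at 0.51 and 0.58.

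A ratio was also taken within each library between transcripts of like length, and whether it is free of that trend was not tested. Tpi1 over Aldoa, of 1592 and 1450 bases, was 0.326 and 0.408 in 3mo control and 0.190 and 0.218 in 18mo control libraries. In treated eyes it was 0.377 and 0.435 at 3mo and 0.263 and 0.240 at 18mo. In both pairs of groups the young libraries lay above the aged ones without overlap. In the repeated-IOP experiment, also of 3mo animals, the ratio was 0.290 and 0.244 in the 4xIOP control and 0.330 and 0.358 in the 4xIOP libraries. The 4xIOP control values overlapped those of 18mo IOP, so the ratio did not separate all young from all aged libraries. With 2 libraries against 2 an exact two-sided permutation test cannot go below p = 0.333, so none was used for such ratios. The call of Tpi1 in control eyes rested on single libraries: without replicate 2 of 3mo control the log2 fold change was -0.60, and without replicate 1 it was -1.45. Without replicate 1 or 2 of 18mo control it was -0.83 and -1.22, and the call was lost. The call was also lost without either 3mo IOP library, which only share the estimate of the spread. In IOP eyes the call was lost without any of the 4 libraries compared, at log2 fold changes between -1.23 and -1.08 and limma adjusted p-values between 0.0651 and 0.118.

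Markers of other cells moved with age in the same libraries. All 5 retinal pigment epithelium markers tested were called lower in both age comparisons, but 3 of them in control eyes and 4 in IOP eyes averaged under 0.5 FPKM at 18mo and passed the filter only through young libraries, so that their count carries no weight beside the sums given above. Also called lower were 5 of 8 retinal ganglion cell markers in control eyes and 8 of 8 in IOP eyes, against 11.6% of all genes called lower in either comparison. Of these 8, Pou4f2 averaged under 0.5 FPKM at 18mo. Ganglion cell markers summed to 326.5 and 631.4 FPKM in 3mo control and to 35.3 and 81.7 FPKM in 18mo control libraries, with none at 0. The highest gene of each library held 150.5 and 443.3 FPKM of the young sums and 18.7 and 37.0 FPKM of the aged ones. The median log2 fold change of the 8 was -1.33. The authors concluded that age did not substantially change ganglion cell numbers. Called higher were 3 of 6 Muller glia markers and 4 of 7 microglia and leukocyte markers in control eyes, against 11.6% of all genes, and 1 of those 4 was under 0.5 FPKM on average at 3mo. Rod markers summed to 21350 and 26140 FPKM in 3mo control and to 17060 and 15080 FPKM in 18mo control libraries, with 1 of 8 called lower. In IOP eyes they summed to 21600 and 20460 against 10780 and 12560 FPKM, with 2 of 8 called lower. Of 6 cone markers 2 were called higher in control eyes and 0 in IOP eyes. The part of all these markers in the enzyme values was not tested.

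A single elevation of IOP was compared within each age, to see how the retina responds 2 days later. No enzyme was called at 3mo or at 18mo, where 0.575% and 0.124% of all genes were called. At an unadjusted p under 0.05 there were 0 enzymes at 3mo and 1 at 18mo in limma, and voom in limma on the recovered reads called 0 at either age. At 3mo 2 enzymes stood higher and 1 lower without overlap, against 28.6% of all genes higher, 3.95% lower and 32.5% in either direction. At 18mo the counts were 2 higher and 6 lower, against 36.5% of all genes higher, 9.89% lower and 46.4% in either direction. The comparisons at 3mo and 18mo use the control libraries of the age comparison.

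Hk1 and Aldoc were the 2 enzymes higher in treated eyes without overlap at both ages. Hk1 had 109 and 70.9 FPKM in 3mo control against 127 and 118 FPKM in 3mo IOP libraries, a log2 fold change of 0.47 with a 95% interval from -0.17 to 1.12 (limma adjusted p = 0.794). At 18mo it had 143 and 152 against 173 and 263 FPKM, with 0.53 and an interval from -0.11 to 1.18 (limma adjusted p = 0.694). Aldoc had 106 and 145 against 174 and 157 FPKM at 3mo, with 0.41 and an interval from -0.08 to 0.90 (limma adjusted p = 0.717). At 18mo the libraries of each group lay close together, with 106 and 109 FPKM in untreated against 152 and 154 FPKM in treated libraries. The log2 fold change was 0.51, with an interval from 0.02 to 1.00 and a limma adjusted p of 0.492. None of these differences passed the correction over all genes.

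The 6 enzymes lower without overlap at 18mo, against 9.89% of all genes, were not called. In the same libraries all 6 cone markers were lower without overlap, with a median log2 fold change of -0.69, as were all 5 blood markers tested, with -2.37, and neither list had a call. Higher without overlap were 4 of 4 lens, 4 of 7 microglia and leukocyte and 4 of 6 Muller glia markers, against 36.5% of all genes, with 0 called. Of the lens markers, 2 averaged under 0.5 FPKM in 1 of the groups. Blood markers summed to 166 and 425.6 FPKM in 18mo control and 54.3 and 44.3 FPKM in 18mo IOP libraries, and the part of these markers was not tested. Pkm had 958 and 990.1 FPKM in 18mo control and 751 and 752 FPKM in 18mo IOP libraries, without overlap, with a log2 fold change of -0.37 and an interval from -1.01 to 0.26. Pgk1 had 19.7 and 21.4 against 18.7 and 15.2 FPKM, with -0.27 (limma adjusted p = 0.923). The other 4 lower without overlap were Gpi1, Pfkl, Aldoa and Eno1, with log2 fold changes between -0.23 and -0.13. Tpi1 and Gapdh overlapped, at 0.07 and -0.01. At 3mo Tpi1, Pgk1, Eno1 and Pkm overlapped, with log2 fold changes from -0.10 to 0.20. Whether the response differed with age was tested by the interaction, which no gene passed (0% of 13731 in limma, 218 genes at an unadjusted p under 0.05). For the enzymes the interaction ran from -0.40 for Pfkl and Pkm to 0.10 for Aldoc, and none had an unadjusted p under 0.05.

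After 4 elevations no enzyme was called either, against 6.15% of all 13718 genes tested, nor by the adjusted p alone, against 7.95%. At an unadjusted p under 0.05 there was 1 enzyme in limma, and voom on the recovered reads called 0. Gapdh had 8.87 and 7.94 FPKM in the 4xIOP control and 5.83 and 5.35 FPKM in the 4xIOP libraries, without overlap. Its log2 fold change of -0.55 ± 0.203 did not pass (SE, n = 2 against 2, limma adjusted p = 0.164), and it was -0.66 and past the adjusted p alone (limma, 0.0376) when the trends with length and GC content were removed. Pkm had 803 and 679 against 484 and 679 FPKM, with the lower control just above the higher treated library, and -0.37 with an interval from -1.35 to 0.62. Hk1 had 76.8 and 77.1 against 92.3 and 101 FPKM and Eno1 149 and 128 against 152 and 187 FPKM, both higher without overlap, with 0.33 and 0.28 (limma adjusted p = 0.808 and 0.881). The 4 enzymes without overlap compare with 40.3% of all genes. Aldoc overlapped, with 124 and 96.7 against 89.0 and 136 FPKM and a log2 fold change of 0.01 with an interval from -0.75 to 0.76.

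Isoform shares within a library set the members beside the other genes of their step. Hk1 made up 66.1% and 66.0% of the summed FPKM of 5 hexokinase genes in 3mo control and 75.7% and 78.5% in 3mo IOP libraries. At 18mo the shares were 57.7% and 58.8% in control and 66.5% and 72.6% in IOP libraries. After 4 elevations they were 57.9% and 53.8% in control and 69.0% and 69.6% in treated libraries. The share of Hk1 was thus higher in the treated eyes in all 3 pairs of groups, without overlap. The mean of Hk2 was lower in each treated group, with 53.9 and 34.2 FPKM in 3mo control against 37.4 and 29.8 FPKM in 3mo IOP, 97.2 and 101 against 73.1 and 81.5 FPKM at 18mo, and 53.4 and 62.4 against 34.6 and 37.8 FPKM after 4 elevations. Its log2 fold changes of -0.36, -0.36 and -0.67 were not called (limma adjusted p = 0.871, 0.877 and 0.240). Rod markers, of the cells that carry Hk2, summed to 21350 and 26140 FPKM in 3mo control against 21600 and 20460 FPKM in 3mo IOP, to 17060 and 15080 against 10780 and 12560 FPKM at 18mo, and to 8917 and 9716 against 3625 and 5470 FPKM after 4 elevations. All 8 rod markers were lower without overlap after 4 elevations, against 12.7% of all genes. At 18mo 4 of 8 were, against 9.89%, and at 3mo 4 of 8, against 3.95%. Cone markers were lower without overlap for 0 of 6 at 3mo, 6 of 6 at 18mo and 4 of 6 after 4 elevations, where 3 were called lower, against 0.693% of all genes. They summed to 1155 and 1437 FPKM in 18mo control against 1026 and 555.8 FPKM in 18mo IOP, and to 517.7 and 515.9 against 182 and 262.3 FPKM after 4 elevations. Their part in the share of Hk1 was not tested.

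**Figure D4:**
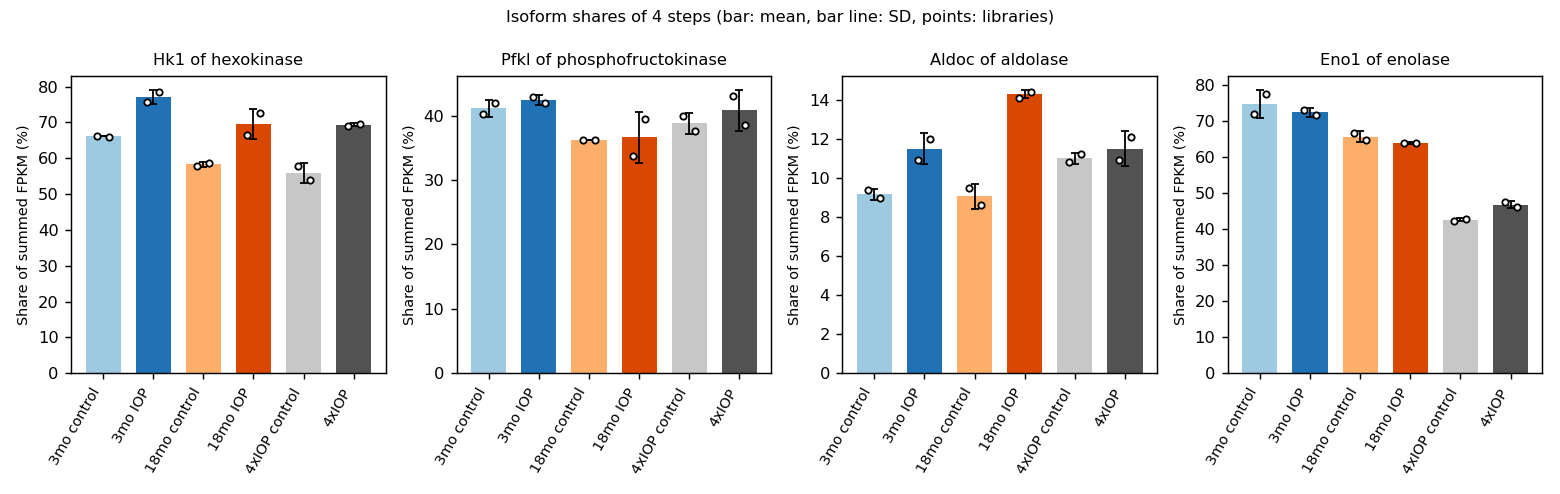
Share (%) of Hk1, Pfkl, Aldoc and Eno1 in the summed FPKM of the genes of their step, as the group mean (bar), SD (line) and 2 libraries (points). The share of Hk1 is higher in the treated group of each pair, at 77.1% against 66.1%, 69.6% against 58.3% and 69.3% against 55.8%.

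The share of Aldoc among 3 aldolase genes was 9.37% and 8.96% in 3mo control and 10.9% and 12% in 3mo IOP libraries. At 18mo it was 9.5% and 8.61% in control and 14.1% and 14.4% in IOP libraries, and after 4 elevations 10.8% and 11.2% against 10.9% and 12.1%, which overlapped. Muller glia markers, 6 genes of which 0 were at 0, summed to 462.6 and 593.5 FPKM in 3mo control against 648.8 and 479.6 FPKM in 3mo IOP libraries, which overlapped. At 18mo the sums were 1211 and 946.4 against 1372 and 1218 FPKM, higher in treated eyes, and after 4 elevations 742.2 and 777 against 443.3 and 565.4 FPKM. The last difference was carried by the most abundant marker, Glul, which went from 579 and 592.2 to 248.8 and 292 FPKM, while 4 of the 6 markers were higher and 2 lower without overlap there, with a median log2 fold change of 0.44 and 1 called higher. Their part in the share of Aldoc was not tested. The enolase sum held Eno1, Eno1b, Eno2 and Eno3. Of the 50-base words of Eno1b, 84.5% also occur in transcripts of other genes, led by Eno1, so the enolase shares are uncertain. Eno1 held 74.8 ± 3.93% of enolase in 3mo control, 65.7 ± 1.53% in 18mo control and 64.0 ± 0.154% in 18mo IOP retinas (SD, n = 2 each). Eno2 made up 13.6 ± 3.31% of the sum in 3mo control and 23.7 ± 1.28% in 18mo control retinas (SD, n = 2 each), while its own log2 fold change of 0.53 stayed under 2-fold. Pfkl was 41.1 ± 1.29% of phosphofructokinase at 3mo and 36.2 ± 0.00284% at 18mo in control eyes (SD, n = 2 each), where Pfkp held 43.3 ± 1.92% and 50.8 ± 1.6%.

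The rest of the pathway gives the setting. Of 18 genes for other isoforms of the same steps 12 were tested, and in control eyes 4 were called higher and 0 lower with age, against 11.6% of all genes in each direction. They were Hkdc1 with a log2 fold change of 2.40, Hk2 with 1.20, Pfkp with 1.17 and Eno3, the muscle enolase, with 1.06 (limma adjusted p between 0.00271 and 0.00865). Of 12 genes of lactate and glucose transport, a list that also holds the lactate dehydrogenases, 10 were tested. Called were 1 higher and 4 lower, Ldha and Ldhb among the latter, against the same 11.6% each way. Slc2a1, the glucose transporter GLUT1, rose by 1.02, from 45.2 and 40.4 to 89.2 and 84.8 FPKM. Ldha, which turns pyruvate into lactate, fell by 1.20, from 699 and 1270.0 to 396 and 427 FPKM, and Ldhb fell by 1.02. Slc16a8, the lactate transporter of the pigment epithelium, fell by 2.32, and Emb, a partner of lactate transporters, by 1.56. Slc16a8 went with the pigment epithelium markers given above, and it passed the filter only through the young groups, with 0.192 and 0.144 FPKM in 18mo control against 2.46 and 3.24 FPKM in 3mo control libraries. The monocarboxylate transporter Slc16a1 overlapped, with 0.02, and Pgam1, the mutase between Pgk1 and Eno1, was at 0.28 (limma adjusted p = 0.951 and 0.218). Of these genes Hkdc1 and Emb were called under every alternative run. Hk2, Ldha, Ldhb and Slc2a1 were no longer called without replicate 2 of 3mo control or without either 18mo control library, and Pfkp without replicate 2 of 3mo or of 18mo control. With a library left out the log2 fold changes ranged from 0.87 to 1.52 for Hk2, from 0.90 to 1.45 for Pfkp, from -1.63 to -0.77 for Ldha, from -1.56 to -0.48 for Ldhb and from 0.94 to 1.10 for Slc2a1. Ldhb was also lost without either 3mo IOP library. Ldha and Ldhb were not called either without a filter, under quantile normalization, with the replicate block or with the 2 groups alone, and lost their call in 10 and 12 of 22 alternatives. With the length trend removed Hk2 was at 0.81, Pfkp at 0.92, Slc2a1 at 0.88 and Ldha at -0.92, all under 2-fold and past the adjusted p alone, and Ldhb was at -0.38 (limma adjusted p = 0.105). With size factors Slc2a1 was at 0.84, and Eno3 was under 2-fold with them, at 0.90, and under quantile normalization, at 0.93.

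**Figure D5:**
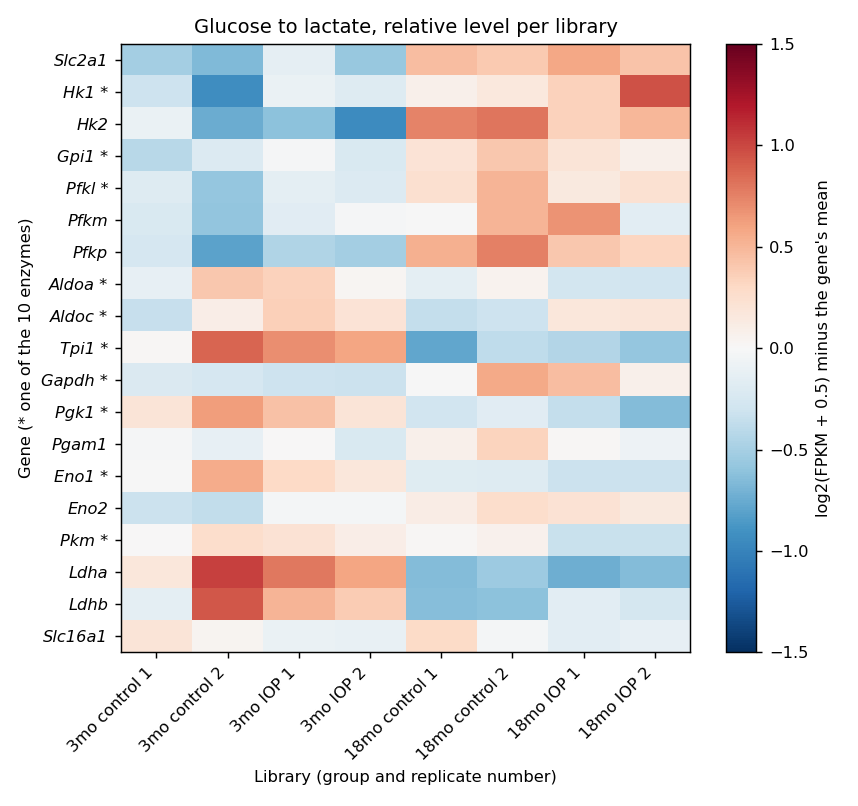
Level of 19 genes from glucose uptake to lactate (rows, the 10 enzymes starred) in the 8 single-IOP libraries (columns), as log2(FPKM + 0.5) minus the mean of the gene, from blue (lower) to red (higher). Slc2a1, Hk2 and Pfkp are redder in the 18mo columns, and Tpi1, Pgk1, Ldha and Ldhb are bluer there.

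Downstream of pyruvate some mitochondrial genes were called lower with age. Of 17 genes of glycolysis regulators and pyruvate entry 0 were called higher and 2 lower in control eyes, Mpc1 with -1.84 and Mpc2 with -1.63, the 2 subunits of the mitochondrial pyruvate carrier, a count near the 11.6% of all genes called lower. Of 17 tricarboxylic acid cycle genes 6 were called lower and 0 higher, with Sdhb at -1.60, Suclg1 at -1.21 and Idh3a at -1.17 as the largest. Other cycle genes, chosen after their values were seen, were higher and not called, with Cs, the citrate synthase, at 0.67 and Ogdh, of the oxoglutarate dehydrogenase complex, at 0.83. With the length trend removed Mpc1 was at -0.92, Mpc2 at -0.71, Sdhb at -0.88 and Suclg1 at -0.75, all under 2-fold. With length and GC trends removed Idh3a was at -0.90. The median of the tricarboxylic acid cycle genes was -0.27 against 0.16 for all genes, and after removal of the length trend it was -0.03 against 0.10 for all genes. Of 8 pentose phosphate genes 2 were called lower, Pgls with -1.27 and Rpe with -1.16. Pgls was at -0.41 with the length trend removed, and Rpe at -0.53 with the length and GC trends removed, both under 2-fold. Leaving out replicate 2 of 18mo control ended each of these 7 calls, and leaving out replicate 1 ended those of Mpc2, Sdhb, Suclg1, Idh3a and Pgls. Those of Mpc2, Suclg1, Idh3a and Pgls were also lost without replicate 2 of 3mo control. The smallest log2 changes with any library left out were -1.22 for Mpc1, -0.95 for Mpc2, -1.07 for Sdhb, -0.83 for Suclg1, -0.75 for Idh3a, -0.68 for Pgls and -1.02 for Rpe. In IOP eyes the counts with age were 2 higher and 0 lower for the other isoforms, 0 and 3 for transport with the lactate dehydrogenases, 0 and 2 for pyruvate entry, 0 and 5 for the cycle and 0 and 1 for pentose phosphates, against 10.2% of all genes called higher and 11.6% lower. Hkdc1, Hk2, Ldha, Slc16a8 and Emb were called there too. Pfkp at 0.84, Slc2a1 at 0.86 and Ldhb at -0.66 were not, nor were Eno3, Idh3a and Rpe.

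Under single IOP no gene of these lists was called. After 4 elevations 1 was called, against 5.45% of all genes called higher. It was Hk3, the hexokinase of white blood cells, which rose from 0.070 and 0.090 to 1.93 and 1.14 FPKM, by 1.78 on the log2 scale (limma adjusted p = 0.000813). Hk3 passed the filter only through the treated libraries, where it is high, so that its being tested depends on the difference itself. Called with it were 6 of 7 microglia and leukocyte markers, 2 of which averaged under 0.5 FPKM in the fellow eyes, and the sum of the 7 was 6.35 and 6.57 FPKM in the fellow eyes and 73.3 and 65.7 FPKM after 4xIOP. In the same libraries 4 of 4 lens markers tested were called higher, 2 of which averaged under 0.5 FPKM in the fellow eyes, and the 6 lens genes summed to 4.46 and 0.702 FPKM in the fellow eyes and 41.6 and 79.5 FPKM after 4xIOP. Both pigment epithelium markers tested were called lower, 1 of them at under 0.5 FPKM after 4xIOP. The part of these markers in the enzyme values was not tested. Ldha and Slc2a1 overlapped after 4 elevations, with -0.04 and -0.16.

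As deposited, the enzymes did not move as a unit over the 8 single-IOP libraries. The root mean square difference from the mean profile of the 10, on the log2 scale, was 0.551 for Hk1 and 0.534 for Tpi1, and 0.170 for Aldoa and 0.172 for Pkm. The trend with length was not removed for these values, and the transcripts of Hk1 and Tpi1 have 4076 and 1592 bases. No such difference was computed for other sets of genes. The mean of the centred log2 values ranged from -0.14 in replicate 1 of 3mo control to 0.18 in replicate 1 of 3mo IOP. The genes nearest to that mean profile were Pip4p1, Rdh13, Necap1, Msantd3 and Tsnax, with differences from 0.0498 to 0.0608 over 8 libraries. A near-flat mean has many near neighbours, and nothing follows from the names.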

How the data were processed

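Retinal RNA was isolated in TRIzol, enriched for poly(A) and made into strand-specific libraries for a NovaSeq instrument. The authors mapped reads to mm10 with STAR (2.7.8a per the labels) and counted uniquely mapped tags in exons with HOMER, with a single isoform per locus. The FPKM tables were deposited by the authors, scaled separately and with every replicate in a column of its own. Read length is not given in the sources used here. Depth was recovered from the low values. Of 10006 to 13062 values per library that stood for under 1000 reads and could be resolved, at least 99.96% were whole reads within the rounding of the table plus 0.02 reads (at most 0.25 reads in all), and larger read numbers follow from the recovered depth. Genes averaging 0.5 FPKM or more (13731 and 13718) were tested as log2(FPKM + 0.5) in limma 3.58.1 under R 4.3.3, using lmFit and a trended eBayes. The 8 single-IOP libraries shared an estimate of the spread with 4 residual degrees of freedom, and the 4 repeated-IOP libraries were fitted alone with 2. Calls needed an adjusted p (Benjamini-Hochberg) of 0.05 or less with a log2 fold change of 1 or more in size, and the interaction the adjusted p alone. Fold changes on this scale understate those of low genes. The script was tested on simulated data. Shared 50-base words were counted in annotated transcripts of the same build.

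The members and gene lists were chosen with earlier results of these data known. Named genes were the 10 members, 9 other main genes of the pathway, up to 3 called genes per list, comparison and direction with the largest change without overlap, and the 5 genes nearest to the mean profile. Alternatives were pseudocounts of 0.1 and 1, no filter, a filter at 2 FPKM, quantile normalization, size factors by the median of ratios, removal of trends with transcript length and GC content (splines with 5 degrees of freedom), voom on recovered reads, eBayes without trend, a replicate block, only the groups compared and leaving out each library. A crossed block and the length trend without replicate 2 of 3mo control were chosen after seeing the data. Errors from read numbers cover counting error only.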

Additional observations from a re-analysis of the deposited data

Results flagged for a closer look

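Eno1 stood on opposite sides in aged eyes after a single elevation and in young eyes after 4 elevations, in all libraries of both comparisons. It had 321 and 319 FPKM in 18mo control and 292 and 293 FPKM in 18mo IOP libraries, a log2 fold change of -0.13. In the repeated experiment it had 149 and 128 FPKM in the control and 152 and 187 FPKM in the 4xIOP libraries, with 0.28. The difference between the log2 fold changes was -0.41 and was not tested, since the experiments differ in age, in number of elevations and in table. Neither change passed the adjusted p in limma (0.999 and 0.881). Of the 50-base words of Eno1, 72.19% occur in transcripts of other genes.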

How the results depend on the processing

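In control eyes the count of enzymes called with age, 1 in the reported fit, was 0 without a filter, with length and GC trends removed, with the 2 groups alone and with the length trend removed and replicate 2 of 3mo control left out, 3 under quantile normalization and 4 by the adjusted p alone. Leaving out a library gave between 0 and 2. In IOP eyes the count of 1 was 0 without a filter and with length and GC trends removed, 3 by the adjusted p alone, and between 0 and 1 with a library left out. The median of the enzymes above that of all genes with age, -0.30 in control eyes, moved to 0.42 under quantile normalization, -0.09 without the length trend, 0.02 without it and replicate 2 of 3mo control, and between -0.54 and -0.05 with a library left out. In IOP eyes it moved from -0.38 to 0.37 under quantile normalization and to -0.16 without the length trend, with or without that library. Aldoc turned to 0.53 there under quantile normalization. For 3mo IOP the median of -0.02 ranged between -0.27 and 0.10 with a library left out, for the interaction that of -0.11 between -0.37 and 0.09, and for 4xIOP that of -0.12 was 0.11 under quantile normalization. A group left with 1 library was assumed to vary like the others. The causes were not tested. No enzyme was called in an IOP comparison under any alternative run.

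With the number in the labels as a replicate block, 0 enzymes were called with age in control and in IOP eyes. Same-numbered libraries deviated in opposite ways (r of -0.275, -0.53 and -0.29), no source states a pairing, and the numbers were not taken as pairs. With crossed numbers 1, 1 and 0 enzymes were called with age in control eyes, in IOP eyes and after IOP. With 2 libraries a group, changes under the intervals given were not detectable.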
